A study of Mus musculus with 6 samples.

Results

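The clustered protocadherins are cell surface adhesion proteins of the cadherin superfamily that are encoded by 3 neighbouring gene clusters, named alpha, beta and gamma. Members were taken by name alone, as the protein-coding genes of Ensembl release 96 whose symbol is Pcdha, Pcdhb or Pcdhg followed by a number or by a letter a, b or c and a number. The rule found 57 genes among the 55536 counted, with 14 in the alpha, 22 in the beta and 21 in the gamma cluster. No read count entered the rule. The family itself was chosen by results of the same comparison of read counts, which were known, so its values are given as a description.

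Gene expression was measured by sequencing mRNA from CAD cells, an SV40-transformed mouse line of catecholaminergic cells of the central nervous system. The undifferentiated group held 3 libraries of proliferating cells in 8% serum. The dexamethasone group held 3 libraries of cells differentiated for 5 days with 100 µM dexamethasone, a synthetic glucocorticoid, in 1% serum. Both groups are the same line and neither carries a transgene or deletion named in the labels. The steroid and the lower serum changed together, so their parts in a difference cannot be told apart. Whether the libraries of a group stem from separate cultures is not given in the labels. A p-value here thus weighs a difference against the spread of these 6 libraries only, and that spread may be technical.

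In the alpha and gamma clusters each gene has its own promoter and a large first exon, the variable exon, that encodes the extracellular, membrane-spanning and first cytoplasmic part of the protein. That exon is spliced to constant exons at the end of the cluster, which all genes of the cluster share and which encode the common cytoplasmic end. Beta genes are single-exon genes with no constant part. Single neurons use different sets of these promoters, and matching proteins on the branches of a neuron let it tell its own branches from those of other cells. The last genes of the alpha and gamma clusters, the C-types Pcdhac1, Pcdhac2, Pcdhgc3, Pcdhgc4 and Pcdhgc5, are known for use in many neurons rather than for random choice.

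All 57 genes lie on the plus strand of chromosome 18 (GRCm38) within 911.7 kb. The alpha cluster runs from 36930184 to 37187661, the beta cluster from 37264938 to 37524479 and the gamma cluster from 37661793 to 37841873. Every alpha gene ends within a few bases of the same place, and so does every gamma gene, because the annotation gives each of them the constant exons.

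Reads that overlapped exons of more than one gene were not assigned by the counting, per the file headers. This reached the clusters unequally. All 14 alpha genes shared between 2860 and 5274 of their exonic bases with another gene of the strand, and all 21 gamma genes shared between 2116 and 3157. Only 2 of 22 beta genes, the overlapping neighbours Pcdhb21 and Pcdhb22, shared any, 455 bases each. The median member kept 46.4% of its exonic bases to itself in the alpha cluster, 55.4% in the gamma cluster and 100% in the beta cluster.

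A read in a constant exon, or one that joined a variable to a constant exon, therefore counted for no gene. The values of alpha and gamma genes given here are of bases that no other gene shares, and how many reads were lost cannot be read from the counts. The smallest countable part was that of Pcdha4, with 494 bases or 8.56% of its exons. Pcdha4 also shared exonic bases with Gm42416, a gene model that is no member. Sequence likeness between members added little to this. Stretches of 75 bases, the read length, that occurred in the exons of no other annotated gene made up a median of 42.4% in the alpha, 98.8% in the beta and 56.1% in the gamma cluster. CPM is the count scaled to the size of its library and follows reads, which longer genes draw more of. Levels of different genes are compared as CPM per kilobase of these unshared bases.

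**Figure D1:**
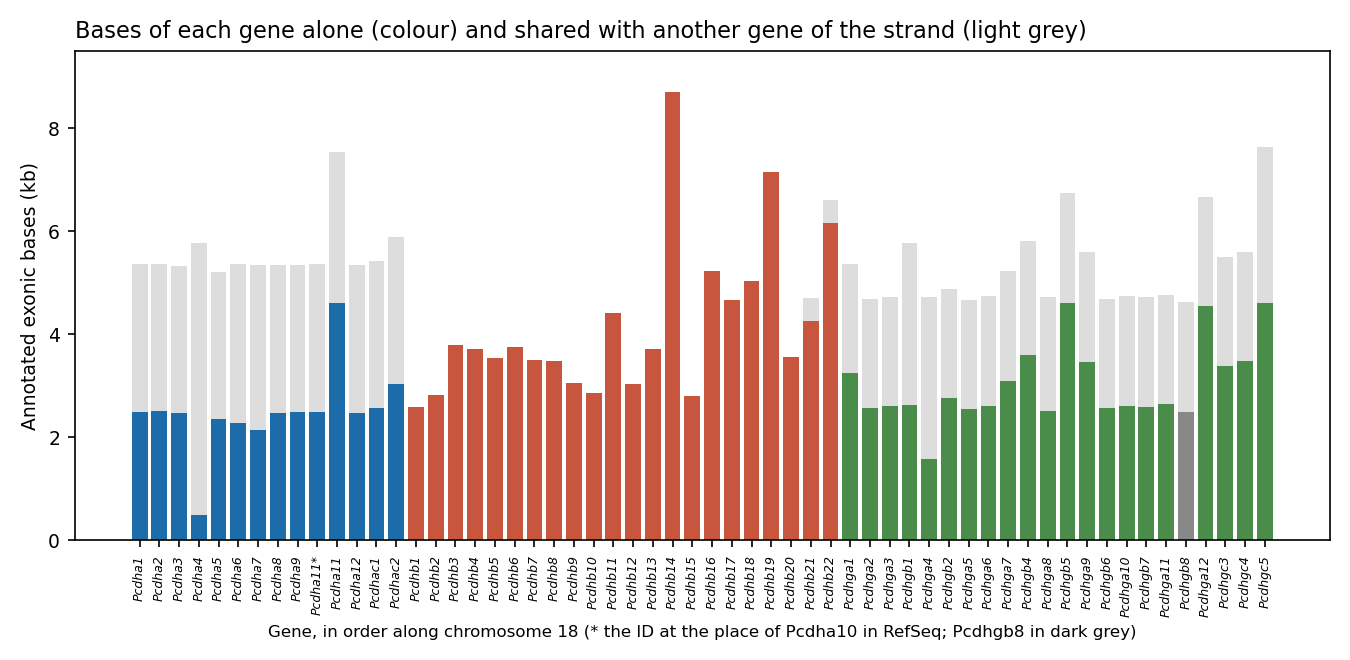
Exonic bases of each clustered protocadherin gene in kb, in order along the chromosome, split into bases of that gene alone (blue alpha, red beta, green gamma) and bases shared with another gene of the strand (light grey). All alpha and gamma genes carry a grey part of at least 2116 bases, and among beta genes only Pcdhb21 and Pcdhb22 do; Pcdhgb8, in dark grey, is no member.

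The reads of the 3 clusters did not move alike. The beta cluster was 4.43-fold higher after dexamethasone by its summed level, the alpha cluster 2.25-fold and the gamma cluster 1.21-fold, with overlapping groups in the last alone. Before treatment the alpha cluster held the largest share of the members' counted reads, and after treatment the beta cluster did. In total 1346 reads of the undifferentiated and 4762 reads of the dexamethasone libraries fell on the 57 genes.

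The beta sum was 21.3, 27.7 and 23.9 CPM in undifferentiated replicates 1, 2 and 3 and 119.6, 106 and 96.6 CPM in dexamethasone replicates 1, 2 and 3. Its means were 24.3 ± 3.18 and 108 ± 11.5 CPM (SD, n = 3 each). The alpha sum was 27.3, 34.2 and 36.4 against 75.4, 78.4 and 66.1 CPM, with means of 32.6 ± 4.74 and 73.3 ± 6.40 CPM (SD, n = 3 each). In both clusters every dexamethasone library lay above every undifferentiated one. The gamma sum was 6.22, 7.01 and 7.63 against 9.30, 8.94 and 6.999 CPM, with means of 6.95 ± 0.707 and 8.41 ± 1.24 CPM (SD, n = 3 each). Here the lowest dexamethasone library lay just under undifferentiated replicates 2 and 3, and the gap between means was near the spread within groups.

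As shares of the reads on the family, the beta cluster went from 38.1 ± 2.61% to 56.8 ± 1.81%, the alpha cluster from 51.0 ± 2.25% to 38.8 ± 1.78% and the gamma cluster from 10.9 ± 0.641% to 4.43 ± 0.268% (SD, n = 3 each). None of the 3 shares overlapped between groups. Read loss in the constant exons lowers the alpha and gamma shares in both groups, so the shares are not shares of transcripts. They also leave out Pcdhgb8, which lies in the gamma cluster but is no member. It drew 387 undifferentiated and 893 dexamethasone reads, beside 146 and 213 on the 21 gamma members, so the gamma shares would be larger with it. Per kilobase of unshared bases, the summed level went from 11.6 to 26.7 CPM in the alpha, from 5.62 to 25.4 in the beta and from 2.27 to 2.63 in the gamma cluster. On that scale the undifferentiated alpha sum was above the beta sum, and after dexamethasone the pair stood close together.

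**Figure D2:**
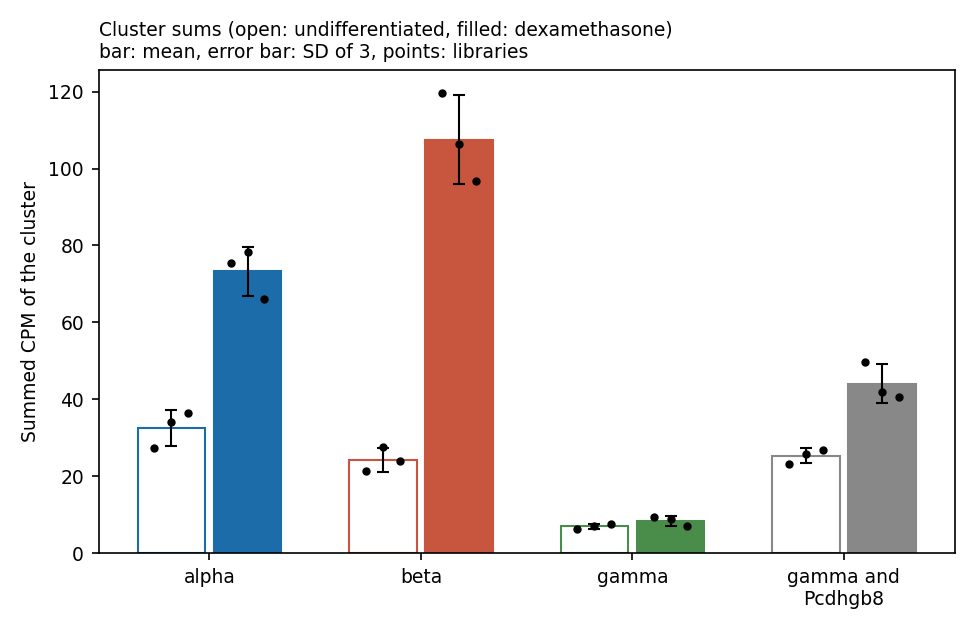
Summed CPM of the members of each cluster, with bars for the mean, error bars for the SD of 3 libraries and points for single libraries (open bars undifferentiated, filled bars dexamethasone). The beta bars stand at 24.3 and 108 CPM and the alpha bars at 32.6 and 73.3 CPM, while the gamma bars stand at 6.95 and 8.41 CPM and their points overlap; the last pair adds Pcdhgb8, which the annotation does not class as protein-coding.

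Over all 57 genes and without any filter, every dexamethasone library lay above every undifferentiated one for 29: 21 of 22 beta genes, 7 of 14 alpha genes and 1 of 21 gamma genes. Among all 23260 genes with a read, 26.9% had this pattern and 24.2% had the reverse. The reverse held for 3 members, Pcdha5, Pcdhgb6 and Pcdhga11. No read fell on 4 members, Pcdhb1, Pcdhga4, Pcdhga7 and Pcdhga10, which allows up to 0.142 CPM in the undifferentiated and 0.120 CPM in the dexamethasone group (3 reads over the group, counting error only). Fewer than 10 reads in all fell on 17 members: 4 alpha, 1 beta and 12 gamma genes.

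The filter on low counts left 26 members to test, 8 alpha, 17 beta and 1 gamma, and 31 untested. All 26 were called higher after dexamethasone and 0 lower by the quasi-likelihood test of edgeR (adjusted p under 0.05, Benjamini-Hochberg), where 40.3% of the 12664 genes tested were called higher and 38.6% lower. None was lower at an unadjusted p under 0.05, or with DESeq2 or limma voom, either. The groups did not overlap for 25 of the 26, all but Pcdha6, where every dexamethasone library lay on top for 41.0% and at the bottom for 38.9% of the genes tested. These counts are not evidence about the family, since 22 of the 26 reached the filter only through their dexamethasone libraries. The 4 that the undifferentiated libraries alone would have kept were Pcdhac2, Pcdhb17, Pcdhb20 and Pcdhb22, and their folds were 1.81, 4.71, 2.65 and 2.83. The median log2 fold change was 1.52 over the 8 tested alpha and 2.18 over the 17 tested beta genes, beside 0.02 over all genes tested. A rise of at least 4-fold was called for 12 beta, 3 alpha and 0 gamma genes, and for 6.45% of all genes tested.

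With no filter, 53 members with a read entered the test. It called 29 higher and 1 lower, where 24.7% of all genes entered were called higher and 21.4% lower. Of the 21 beta genes with a read, 20 were called higher and Pcdhb7 was not. Of the alpha genes 8 of 14 were called higher. Of the 18 gamma genes with a read, Pcdhga9 was called higher, Pcdhga11 lower and 16 neither way.

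**Figure D3:**
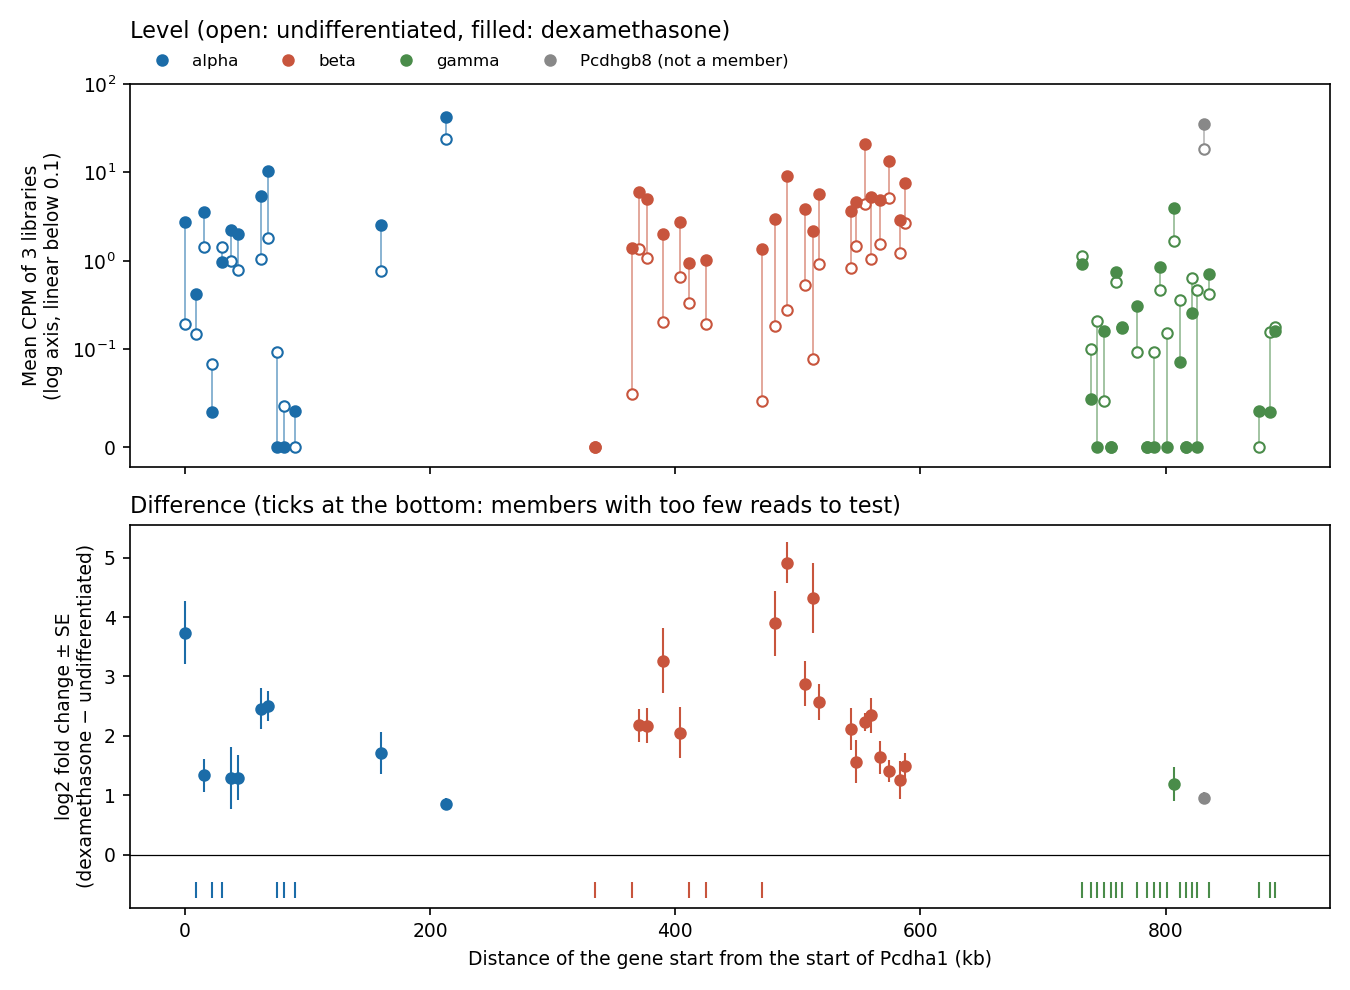
Upper panel: mean CPM of 3 libraries for each member against the distance of its start from the start of Pcdha1 in kb (log axis, linear below 0.1; open undifferentiated, filled dexamethasone). Lower panel: log2 fold change ± SE of the tested members, all above 0, with ticks for the 31 that were not tested, 20 of them gamma genes.

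In the alpha cluster 1 gene carried most of the counted reads. Pcdhac2, the last alpha gene and a C-type known for use in serotonergic neurons, had 20.8, 24.7 and 25.8 CPM in undifferentiated and 42.3, 46.1 and 39.9 CPM in dexamethasone replicates 1, 2 and 3. The groups did not overlap, and the log2 fold change was 0.86 ± 0.09 (SE), a 1.81-fold rise and the smallest of the 26 tested members. Per unshared kilobase Pcdhac2 stood at 7.85 and then 14.1 CPM. Its share of alpha reads went from 73.2 ± 2.68% to 58.4 ± 2.16% (SD, n = 3 each), because the other tested alpha genes rose by more.

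Pcdha9 and Pcdha8, neighbouring genes of the alternate kind whose promoters are chosen at random in neurons, came next. Pcdha9 had 0.848, 2.80 and 1.79 CPM in undifferentiated and 11.8, 10.6 and 9.08 CPM in dexamethasone replicates. It rose 5.69-fold (log2 2.51 ± 0.25 SE), and its share of alpha reads went from 5.41 ± 2.59% to 14.3 ± 1.22% (SD, n = 3 each). Every dexamethasone library of Pcdha9 lay far above all undifferentiated ones. Pcdha8 had 0.707, 0.637 and 1.79 against 5.54, 7.19 and 3.57 CPM and rose 5.50-fold (log2 2.46 ± 0.34 SE). Its groups did not overlap, though undifferentiated replicate 3 was well above the other two.

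Pcdha1, the first gene of the cluster, had the largest fold of the tested alpha genes. It had 0, 0.255 and 0.325 CPM, 4 reads in all, against 1.88, 3.16 and 3.28 CPM, or 68 reads. The fitted fold was 13.4 (log2 3.74 ± 0.53 SE), and the ratio of scaled reads was 14.4 with an exact binomial 95% interval of 5.37 to 54.3. Few reads lie behind the undifferentiated level, so the size of the fold is loose while the groups stand apart.

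Pcdha3 had 1.55, 1.40 and 1.30 against 3.54, 3.71 and 3.57 CPM, a 2.52-fold rise (log2 1.33 ± 0.28 SE) with close replicates in both groups. Pcdhac1, the other alpha C-type, had 0.707, 0.765 and 0.812 against 2.55, 2.51 and 2.53 CPM. It rose 3.28-fold (log2 1.71 ± 0.35 SE). The C-types thus did not move as a pair against the alternate genes: Pcdhac1 lay within the range of the other tested alpha genes and Pcdhac2 below it.

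Pcdha7 rose 2.46-fold. Pcdha6 was called at an adjusted p of 0.025 with edgeR's quasi-likelihood test but its groups overlapped, with 0.141, 0.765 and 2.11 against 4.10, 1.74 and 0.893 CPM. This call did not hold with DESeq2 (adjusted p = 0.312) or without undifferentiated replicate 1 (edgeR adjusted p = 0.171), undifferentiated replicate 2 (0.0898) or dexamethasone replicate 1 (0.376). Its fold moved from 2.44 to 1.44 without dexamethasone replicate 1 and to 4.88 without undifferentiated replicate 3.

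The 6 untested alpha genes held few reads. Pcdha5 went against the others, with 1.27, 1.40 and 1.62 CPM in undifferentiated and 1.22, 0.763 and 0.893 CPM in dexamethasone replicates. Its ratio of scaled reads was 0.677, and the exact binomial 95% interval of 0.379 to 1.20 spans no change. Pcdha2 had 3 and 10 reads, Pcdha4 had 2 and 1, and Pcdha12 had 0 and 1 in the undifferentiated and dexamethasone groups. Only 494 bases of Pcdha4 could be counted, so its few reads do not show a low level. The annotation gives the symbol Pcdha11 to a pair of gene identifiers, of which ENSMUSG00000007440 lies where RefSeq places Pcdha10, and neither had a read after dexamethasone. The near-silent stretch from Pcdha10 to Pcdha12 thus lay directly beyond Pcdha9, the highest of the alternate alpha genes after dexamethasone.

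**Figure D4:**
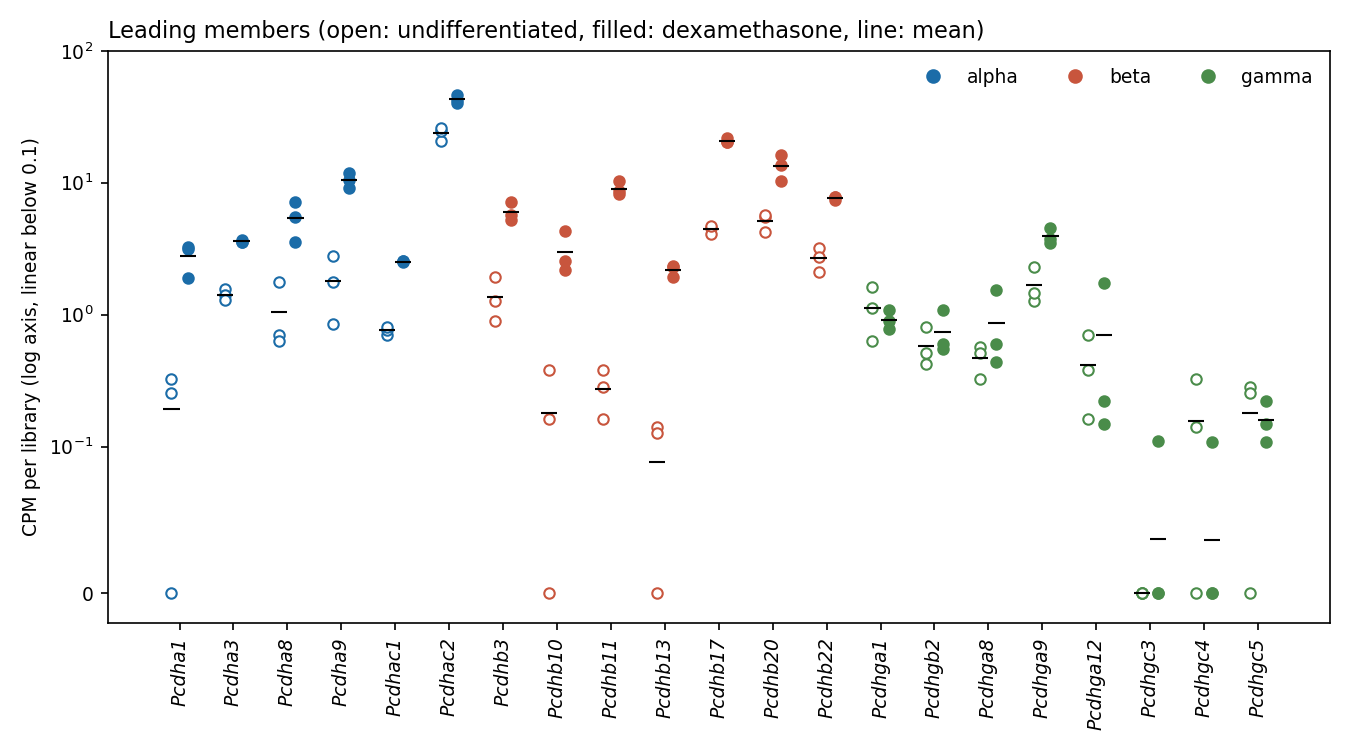
CPM in each library (log axis, linear below 0.1) for the leading members by mean CPM or by fold and the C-types (Pcdha5, Pcdha6 and Pcdhga11 are not drawn), with open points for undifferentiated, filled points for dexamethasone and lines for means of 3. Filled points lie above all open points for the alpha and beta genes drawn and for Pcdhga9, and the groups overlap for the other gamma genes drawn.

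All 17 tested beta genes were called higher, and 5 of the 22 were not tested. Pcdhb17 and Pcdhb20 drew the most reads of the cluster in both groups. Pcdhb17 had 4.52, 4.08 and 4.71 CPM in undifferentiated and 21.8, 20.4 and 20.3 CPM in dexamethasone replicates, a 4.71-fold rise (log2 2.24 ± 0.15 SE). Its 3 libraries per group lay close together, and its share of beta reads was 18.6 ± 3.38% before and 19.5 ± 1.38% after (SD, n = 3 each). Pcdhb20 had 4.24, 5.48 and 5.68 against 16.3, 13.7 and 10.3 CPM and rose 2.65-fold (log2 1.41 ± 0.18 SE). Its share of beta reads went from 21.2 ± 2.29% to 12.4 ± 1.56% (SD, n = 3 each), so it rose by less than the cluster.

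Per unshared kilobase, Pcdhb20 stood at 1.44 and Pcdhb17 at 0.952 CPM in the undifferentiated group, and at 3.77 and 4.47 CPM in the dexamethasone group. The order of the pair on that scale thus changed. Pcdhb22, the last gene of the cluster, had 2.12, 3.19 and 2.76 against 7.86, 7.41 and 7.74 CPM and rose 2.83-fold. Pcdhb3 had 1.27, 0.892 and 1.95 against 7.20, 5.67 and 5.21 CPM and rose 4.52-fold (log2 2.18 ± 0.28 SE). No groups overlapped in these genes.

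Among tested beta genes, the 3 largest fitted folds were those of Pcdhb11, Pcdhb13 and Pcdhb10 in the middle of the cluster, all near 0 before treatment. Pcdhb11 had 0.283, 0.382 and 0.162 CPM, 6 reads in all, in undifferentiated and 8.19, 10.2 and 8.64 CPM, 226 reads, in dexamethasone replicates. It rose 30.2-fold (log2 4.91 ± 0.34 SE, edgeR adjusted p = 3.35e-13). After dexamethasone only Pcdhb17 and Pcdhb20 drew more reads among beta genes. Pcdhb10 had 0, 0.382 and 0.162 against 4.32, 2.18 and 2.53 CPM and rose 14.9-fold (log2 3.89 ± 0.55 SE), with 4 undifferentiated reads. Without undifferentiated replicate 2, which held 3 of those reads, its fitted fold was 33.3.

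Pcdhb13 had 0.141, 0.127 and 0 against 2.33, 2.29 and 1.94 CPM. With 2 undifferentiated reads, its ratio of scaled reads was 23.3 with an exact binomial 95% interval of 6.14 to 197. The untested genes Pcdhb2, near the start of the cluster, and Pcdhb9 had 1 read each before and 35 and 33 reads after. Their ratios were 29.6 (4.98 to 1202) and 27.9 (4.67 to 1136), so these folds cannot be ranked against those of Pcdhb10, Pcdhb11 and Pcdhb13.

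The other tested beta genes were Pcdhb4, Pcdhb5, Pcdhb6, Pcdhb12, Pcdhb14, Pcdhb15, Pcdhb16, Pcdhb18, Pcdhb19 and Pcdhb21. Their folds ran from 2.38 in Pcdhb21 to 9.63 in Pcdhb5, and no groups overlapped. A single library weighed on 2 of them. The fold of Pcdhb16 moved from 2.97 to 6.71 and that of Pcdhb5 from 9.63 to 6.24 without undifferentiated replicate 2. Of the remaining untested genes, Pcdhb7 had 7 and 23 reads and Pcdhb8 had 4 and 27, both with every dexamethasone library on top. Pcdhb1, the first beta gene, had no read in any library.

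The gamma cluster drew few reads. Pcdhga9 had 1.27, 2.29 and 1.46 CPM in undifferentiated and 4.54, 3.49 and 3.72 CPM in dexamethasone replicates. It rose 2.29-fold (log2 1.20 ± 0.28 SE, edgeR adjusted p = 0.00043), and the groups did not overlap. Its share of gamma reads went from 24.1 ± 7.49% to 47.0 ± 7.25% (SD, n = 3 each). Per unshared kilobase Pcdhga9 stood at 0.483 and 1.13 CPM, the latter close to the 1.11 CPM of Pcdha1.

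The next gamma genes did not separate the groups. Pcdhga1 had 1.13, 0.637 and 1.62 against 0.775, 1.09 and 0.893 CPM, and Pcdhgb2 had 0.424, 0.510 and 0.812 against 0.554, 1.09 and 0.596 CPM. Pcdhga8 had 0.565, 0.510 and 0.325 against 1.55, 0.436 and 0.596 CPM, so 1 library held most of its dexamethasone reads. Pcdhga12 had 0.707, 0.382 and 0.162 against 0.221, 1.74 and 0.149 CPM, with its high value in dexamethasone replicate 2 alone. For these 4 genes the exact binomial 95% interval of the ratio of scaled reads spanned 1, from 0.454 to 1.58 for Pcdhga1 and from 0.617 to 3.03 for Pcdhgb2.

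Pcdhga11 went the other way. It had 0.283, 0.637 and 0.487 CPM, 10 reads in all, in undifferentiated libraries and no read after dexamethasone. The exact binomial 95% interval of its ratio of scaled reads ran up to 0.377. For counting error alone, this puts Pcdhga11 at least 2.65-fold lower. The filter kept it out of the main test, and the test with no filter called it lower (edgeR adjusted p = 0.00321).

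The 3 gamma C-types were close to silent in both groups. Pcdhgc3 had 0 and 1 read, Pcdhgc4, known for its role in neuron survival, had 3 and 1, and Pcdhgc5 had 4 and 4 in the undifferentiated and dexamethasone groups. A difference in Pcdhgc3 or Pcdhgc4 was not detectable at this depth. For Pcdhgc5 the ratio of scaled reads was 0.846, with an interval of 0.158 to 4.54. All 5 C-types thus split by cluster: both alpha C-types rose and no gamma C-type had more than 4 reads in a group.

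The other gamma genes with a read, Pcdhga2, Pcdhga3, Pcdhga5, Pcdhga6, Pcdhgb1, Pcdhgb4, Pcdhgb5, Pcdhgb6 and Pcdhgb7, had a mean of at most 0.636 CPM in either group.

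Pcdhgb8 lies between Pcdhga11 and Pcdhga12 but is classed by the annotation as a polymorphic pseudogene, so the rule left it out. It had 17.0, 18.9 and 19.3 CPM in undifferentiated and 40.5, 32.9 and 33.5 CPM in dexamethasone replicates, more reads than fell on all 21 gamma members together. It rose 1.95-fold (log2 0.96 ± 0.10 SE). Per unshared kilobase it stood at 7.36 and 14.3 CPM, close to Pcdhac2 at 7.85 and 14.1 CPM. With Pcdhgb8 counted in, the gamma sum was 25.3 ± 1.94 and 44.1 ± 5.04 CPM (SD, n = 3 each), or 1.74-fold higher in place of 1.21-fold, and the groups no longer overlapped.

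Position was set against the fold and the level. Among the 17 tested beta genes all 4 from Pcdhb19 to Pcdhb22 had folds between 2.38 and 3.12. Across these 17 genes the rank correlation of start position with log2 fold change was -0.583, but 14 of them passed the filter only through their dexamethasone libraries, so a gene low before treatment entered only with a large fold. Over the 21 beta genes with a read, in the fit with no filter, it was -0.482. It was -0.165 over the 14 alpha and -0.003 over the 18 gamma genes with a read. All of these are descriptions over genes of the same libraries, and many rest on few reads.

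Over all 22 beta genes the rank correlation of start with CPM per unshared kilobase was 0.575 in the undifferentiated and 0.395 in the dexamethasone group. Over the 17 tested beta genes alone it was 0.431 and 0.0098. Beta genes later in the cluster thus tended to have higher levels in the undifferentiated group. In the dexamethasone group this was seen only with the untested genes counted in, and the difference between the groups was not tested. In the undifferentiated and dexamethasone groups the values were -0.007 and 0.009 over all 14 alpha genes and -0.02 and -0.074 over all 21 gamma genes.

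Genes known to act on these promoters were listed to set the family beside them. CTCF and the cohesin complex bring many of these promoters into loops with distant enhancers, and DNA methylation and Smchd1, a chromatin protein, hold promoters silent. The counts of these lists and of the later lists stand beside the 40.3% called higher and 38.6% called lower of all genes tested. Of 14 looping genes tested 12 were called lower and 2 higher, with a median log2 fold change of -0.72 beside 0.02 for all genes tested. Ctcf, the insulator protein, had 204, 209 and 195 CPM in undifferentiated and 95.4, 90.1 and 85.3 CPM in dexamethasone replicates (log2 -1.16 ± 0.06 SE). Rad21, a cohesin subunit, had 584, 614 and 644 against 258, 250.5 and 250.2 CPM (log2 -1.28 ± 0.05 SE). Both were lower in every dexamethasone library than in any undifferentiated one.

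Smc1a, the cohesin arm, had a log2 fold change of -1.45, and Stag2, another cohesin subunit, of -0.63. Esco2, which acetylates cohesin in S phase, had the largest fall of the list at -4.01. The genes called higher were Hdac8, the deacetylase that recycles cohesin, at 1.05 and Mau2, which helps load it, at 0.27. Wapl, which releases cohesin from DNA and is known to set promoter choice in the alpha cluster, had 93.2 ± 8.80 and 84.2 ± 3.01 CPM (SD, n = 3 each). Its call (log2 -0.15, edgeR adjusted p = 0.0468) did not hold in 14 of 16 alternative settings.

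Of 18 genes on a list for silencing by DNA methylation and heterochromatin, 14 were called lower, 1 higher and 3 neither way. Their median log2 fold change was -0.90. The list also holds Tet1, Tet2 and Tet3, which act to remove DNA methylation. Tet1 and Tet3 were among the genes called lower, at -0.66 and -0.87, and Tet2 was not called. Smchd1 had 168, 171 and 172 against 84.5, 79.9 and 77.1 CPM (log2 -1.08 ± 0.06 SE). Dnmt3b, the methyltransferase that methylates these promoters in the embryo, had 13.4, 15.2 and 15.4 against 2.99, 1.96 and 3.28 CPM (log2 -2.44 ± 0.19 SE). No groups overlapped in either. Uhrf1 and Dnmt1, which copy methylation onto new DNA strands, had log2 fold changes of -3.14 and -2.15, and Ezh2, the Polycomb methyltransferase, of -2.77. Several genes of both lists are also known to be high in dividing cells, and the part of cell division in these values was not tested.

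Clustered protocadherins are cut first by ADAM10 and then by gamma-secretase. Of 8 cleavage genes 4 were called higher, 3 lower and 1 neither way. Psen2, a catalytic subunit of gamma-secretase, had 13.7, 12.1 and 13.3 against 55.8, 60.5 and 65.7 CPM (log2 2.21 ± 0.10 SE). Ncstn and Psenen, other subunits of gamma-secretase, had log2 fold changes of 0.71 and 0.65. Adam10 was lower, at -0.45, and so was the related protease Adam17, at -0.81. The call of Aph1a, at -0.26, did not hold in 8 of 16 alternative settings.

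Cytoplasmic partners, the kinases, WAVE complex subunits and neuroligins that clustered protocadherins are known to bind or restrain, had 8 of 18 tested called higher and 6 lower, shares near those of all genes tested. Their median log2 fold change was 0.00. Cyfip2, a WAVE subunit, had a log2 fold change of 1.82, Nlgn2, a postsynaptic adhesion protein, of 1.42 and the kinase Fyn of 1.35. Rac1, Ptk2 and Cyfip1 were lower, at -0.69, -0.38 and -0.37. Ptk2b, Phldb2 and Nlgn1 had no read.

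Of 12 non-clustered protocadherins 4 were tested, and Pcdh1, Pcdh15 and Pcdh10 were called higher. Pcdh15, the tip-link protein of hair cells, had 2.54, 2.42 and 2.27 against 10.4, 10.7 and 11.2 CPM (log2 2.14 ± 0.20 SE). Pcdh10 had no read before and 52 reads after, and the exact binomial 95% interval of its ratio of scaled reads began at 11.5. Of 8 tested classical and type II cadherins 3 were called higher, 1 lower and 4 neither way. Cdh10 had a log2 fold change of 2.89 and Cdh22 of -0.97, while Cdh2 (N-cadherin) was not called, at -0.05.

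Of 6 tested seven-pass, Fat and Dachsous cadherins and calsyntenins, 4 were called higher and 1 lower. Celsr1, a planar polarity cadherin, had 22.3, 26.8 and 23.4 against 218, 250.4 and 243 CPM (log2 3.29 ± 0.08 SE), and Fat1 had a log2 fold change of -1.32.

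**Figure D5:**
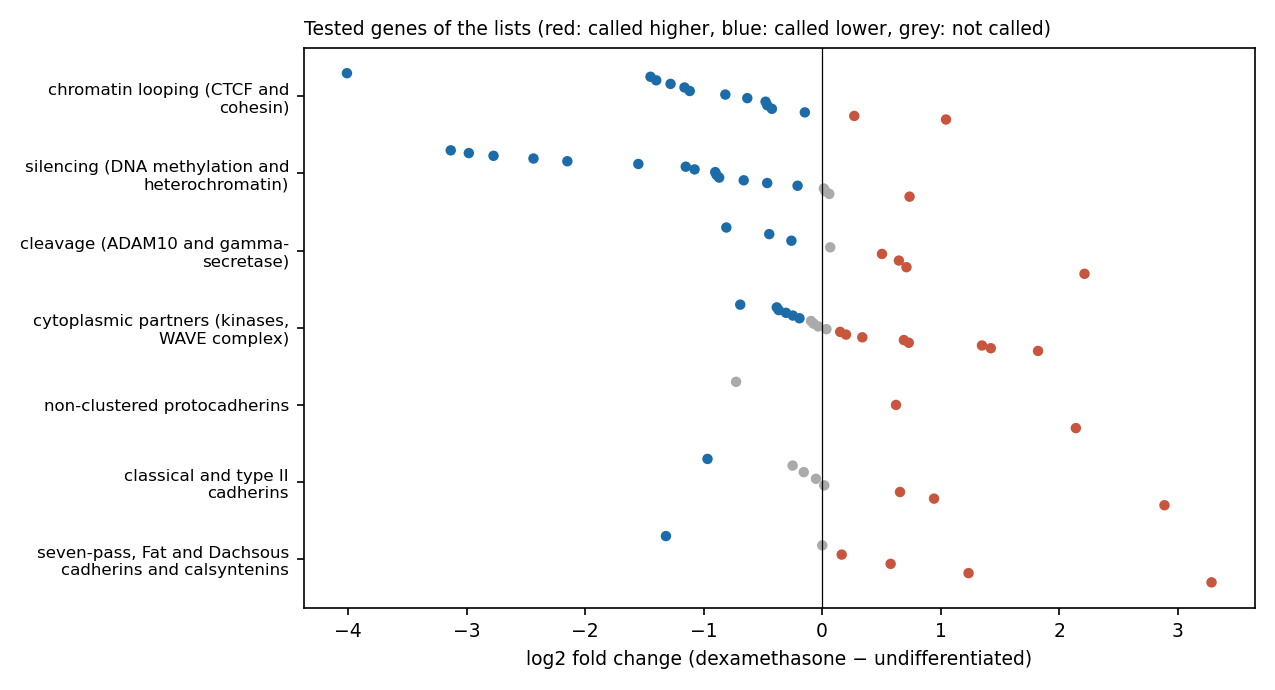
Log2 fold change of each tested gene in the lists of looping, silencing, cleavage, partner and other cadherin genes, red where called higher, blue where called lower and grey where not called; Pcdh10, with no undifferentiated read, is not drawn. Most genes of the looping and silencing lists lie left of 0, with medians of -0.72 and -0.90, and the other lists spread to both sides.

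Genes around the clusters moved both ways. Of 34 other protein-coding genes within 500 kb, 23 were tested, of which 8 were called higher, 12 lower and 3 neither way, where 40.3% of all genes tested were called higher and 38.6% lower. Their median log2 fold change was -0.14. Before the alpha cluster 3 of 13 tested were called higher and 8 lower (median -0.22), and after the gamma cluster 5 of 9 were called higher and 3 lower (median 0.61). Of the 5 nearest tested genes before the alpha cluster, Zmat2 had a log2 fold change of -0.34, Hars of -0.66, Wdr55 of -0.81 and Ik of -0.14, and Hars2 was not called. Apbb3, Tmco6 and Sra1, farther off on that side, were higher at 1.14, 1.14 and 0.37. Hbegf, Ankhd1, Slc35a4 and Ndufa2, also farther off there, were lower at -0.80, -0.50, -0.38 and -0.22. Taf7, a general transcription factor subunit that lies between the beta and gamma clusters, was lower at -0.59. Beyond the gamma cluster Diaph1 and Hdac3 were lower, at -0.67 and -0.70, and Rell2 was not called. Fchsd1 and Arap3 were higher, at 1.28 and 0.85. Farther off on this side Gnpda1, Rnf14 and Pcdh1 were higher, at 1.53, 0.61 and 0.62, and Dele1 was lower, at -0.29.

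Depth and cell identity were checked once for all libraries. The counts summed to between 6411105 and 8757992 reads per library. All 12 neuronal and catecholaminergic markers were tested, with 6 called higher, 5 lower and 1 neither way, and their summed level went from between 2899 and 2947 to between 10861 and 12975 CPM. The rise of the sum was that of Chgb, from 1028 to 10002 CPM, and the other 11 summed to between 1859 and 1922 and then 1680.5 and 1706 CPM. Dbh, the enzyme that makes noradrenaline, was lower at a log2 fold change of -3.72, and Ddc, which makes dopamine, at -2.86. Astrocyte markers summed to between 4.10 and 5.36 and then 3.82 and 4.21 CPM, and oligodendrocyte markers to between 2.97 and 4.22 and then 2.53 and 4.47 CPM. Gja1, Mog, Mag and Sox10 were at 0, while Mbp was called higher. Endothelial, microglial and blood markers summed to between 18.3 and 21.3 and then 33.4 and 35.7 CPM. Most of this was Pecam1, which was called higher (19.5 and 33.1 CPM), and Ptprc and Hbb-bs were at 0. Cdh5, of the same list and not tested, had 0 undifferentiated and 33 dexamethasone reads, with every dexamethasone library on top. Kdr had 5 and 1 and Csf1r had 4 and 1. Fibroblast markers summed to between 10.1 and 13.7 and then 18.3 and 20.3 CPM, mostly Dcn, which was called higher (8.30 and 17.6 CPM), with Col3a1 at 0. The part of other cells in the protocadherin values was not tested, and in such bulk samples fewer cells of a kind and less RNA per cell cannot be told apart.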

How the data were processed

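Each library started from 500 ng of total RNA, with mRNA selection, 12 amplification cycles and 75-base reads, per the labels' protocols. The build GRCm38.p6 and the programs HISAT2 2.2.0, Subread 1.6.4, Trim Galore 0.6.4, FastQC 0.11.9 and DESeq2 are named in the submitters' processing notes. FeatureCounts was run on the exons of Ensembl release 96, summed per gene with strand setting 1 and no option for reads on several genes or places, per the file headers. The deposited values are raw counts, 1 file per library.

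Symbols, gene types and exons came from GENCODE M21, in which all 55536 identifiers were found. Unshared bases are exonic bases covered by no other gene of the strand. Genes were kept by edgeR's filterByExpr (minimum count 10, minimum total 15), scaled with TMM factors and tested over the whole table with glmQLFit and glmQLFTest (edgeR 4.0.16, R 4.3.3), with group as the only term, on 3 against 3 libraries. CPM is TMM-scaled, and SE is the size of the log2 fold change over the square root of F. Ratios of scaled reads carry exact binomial intervals at 95%, for counting error only. The test was first run on simulated counts with known changes. Alternatives tried were no filter, 1 CPM in 3 libraries, upper quartile or RLE factors, library totals, DESeq2 1.42.0, limma 3.58.1 voom, a replicate block, a fold of 1.5, an adjusted p under 0.01 and each library left out.

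The members, gene lists and tests were chosen with earlier results of these data known. Named with values in every library were the 5 members of each cluster with the highest mean CPM, the 3 tested members with the largest fold and the C-types; of other lists, fixed genes and up to 3 called genes per direction with the smallest adjusted p. Pcdha5, Pcdha6, Pcdhga11, Pcdhgb8, Pcdhb2, Pcdhb9, Cdh2, Ddc, Tet1, Tet2, Tet3, Cdh5, Kdr, Csf1r and the farther neighbours were added after their values were seen. The rule for other lists also named 2 genes that are not reported here.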

Additional observations from a re-analysis of the deposited data

How the results depend on the processing

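Of the 26 tested members, 25 kept their call under all 16 alternatives and Pcdha6 lost it in 6, and 0 reversed. The count of members called higher, 26, ran from 25 to 29 over all alternatives, with 26 to 28 when single libraries were left out. The count called lower, 0, was 1 with no filter (Pcdhga11). It was 0 in every fit without one library. The replicate numbers are not stated to pair the libraries. Correlations of deviations between same-numbered libraries were -0.095, 0.036 and -0.071, which cannot settle whether the libraries were paired. With the replicate block 26 members were called higher, all of them called without it.

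Single libraries moved the log2 ratio of summed levels from 1.06 to 1.25 in the alpha, from 2.06 to 2.25 in the beta and from 0.20 to 0.39 in the gamma cluster, and per unshared kilobase from 1.07 to 1.28, from 2.08 to 2.26 and from 0.11 to 0.32. With Pcdhgb8 counted in, an alternative chosen after seeing the data, the gamma log2 ratio was 0.80 in place of 0.27, and 0.81 in place of 0.21 per unshared kilobase. Library totals alone moved the median of all genes by 0.125 and upper quartile factors by 0.102 on the log2 scale. Against a fold of 1.5, Adam10, Cyfip1, Dchs1, Mau2, Pcdh1, Psenen, Ptk2, Stag2 and Cdh6 were no longer called, nor was Cdh6 at an adjusted p under 0.01. Cdh10 moved from 7.41-fold to 12.5-fold without undifferentiated replicate 2. Depth limits the gamma cluster most, where 12 of 21 members had fewer than 10 reads in all.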

Other observations

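Of the other transcripts that lie among the clustered protocadherin genes, Taf7 and Pcdhgb8 drew the most reads (753 and 1280 over the 6 libraries). The long noncoding RNA 3222401L13Rik, which ends just before Pcdhga1 on the same strand, was called higher by edgeR (adjusted p = 0.0158) at 0.61 ± 0.22 on the log2 scale (SE). The pseudogene Gm8242, beside it on the other strand, was called lower, at -1.23 ± 0.30. The mitochondrial carrier gene Slc25a2 between the beta and gamma clusters had 0 undifferentiated and 5 dexamethasone reads. The protein-coding models Gm42416, Gm37013 and Gm37388, which span from the alpha into the gamma cluster on the same strand, had no read in any library. They share exons with members, where reads were not assigned, so these counts do not show that the models are silent.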
